A study of Mus musculus with 22 samples.

Results

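Genes of mitosis and of the G2 phase before it were followed through the neonatal mouse lung in room air and in hyperoxia. The group held 44 of the 22520 coding genes in the deposited expression table, chosen by gene symbol as mitotic cyclins and their regulators, kinesins, spindle and kinetochore proteins, the spindle checkpoint and the machinery of cytokinesis. All 44 passed the filter on low values, a level of at least 1 in at least 2 libraries, and so did 14200 of all genes. Polyadenylated RNA from lung had been sequenced in 22 libraries, and the levels are FPKM values, fragments per kilobase of transcript scaled to library size, which allow a comparison between genes of different length. Lungs were taken on postnatal day 7 (PND7) or postnatal day 21 (PND21) from male and female mice labelled with room air (RA) or hyperoxia (HO). At PND7 there were 2 male and 3 female libraries in room air and 3 male and 2 female libraries in hyperoxia, and each of the 4 groups at PND21 had 3 libraries. Strain, genotype, oxygen concentration and length of exposure are not given in the sources used here. The labels do not say that the libraries came from separate animals, so the p-values measure the spread between these samples, which may be technical.

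Cells enter mitosis when cyclin B binds the kinase Cdk1 and phosphatases of the Cdc25 family remove the inhibitory phosphates from it. Spindle motors and kinetochore proteins then attach and align the chromosomes, the spindle checkpoint holds the cell until all are attached, and the anaphase-promoting complex marks cyclin B and securin for destruction so that the sisters part. Most of these genes are silent in resting cells and are transcribed late in the cycle. The MuvB complex with B-Myb and FoxM1 then replaces the DREAM repressor at the CHR elements of their promoters, which often hold CCAAT boxes as well. In the newborn rodent lung many cells still divide while alveoli form, and division slows as the lung matures.

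Some libraries stood apart before any comparison was made. Every library held lung markers at high levels. Sftpc, a surfactant protein gene of alveolar type 2 cells, stood at 20504, 16401 or 8742, values that quantile normalization gives to the top ranks of each library. Skeletal muscle and squamous epithelium transcripts marked 6 libraries in which Mylpf, a fast muscle myosin light chain, reached the cut of 50 and lay between 74.2 and 772. These muscle-rich libraries were replicate 2 of Male_RA_PND7, Female_RA_PND7 and Female_HO_PND7, and replicate 1 of Male_HO_PND7, Male_RA_PND21 and Female_RA_PND21. The counts for oxygen at PND7 are also given without them. Female_HO_PND21 replicate 1 was below the cut and stayed in those fits. Its 8 muscle markers summed to 65.6, against 11.1 and 9.49 in replicates 2 and 3 of its group. The PND7 sample titles carry numbers 17 to 23 for room air and 26 to 33 for hyperoxia, and effects of the order in which samples were numbered and effects of oxygen cannot be told apart. All PND21 titles carry lower numbers, 3 to 15, so the same holds for the difference between the days. Exons of 14 of the 44 genes overlap exons of another gene, and the strand of the reads is not given in the sources used here, so reads of the partners cannot be separated. Among the genes described in full these were Ccna2 with Exosc9, Cdc20 with Elovl1, Kif20a with Cdc23, Prc1 with Rccd1, Ube2c with Tnnc2, Foxm1 with Tex52, and Plk1 and Top2a with unnamed gene models. In bulk tissue fewer dividing cells and less RNA per dividing cell cannot be told apart.

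Promoters of the group shared the sequence features of late cell cycle genes. RefSeq promoter windows of 300 bases, 250 before and 50 after the start site (GRCm38.p6), were at hand for 37 of the 44 genes, and each was searched on both strands for CCAAT, for the CHR letters TTTGAA or TTCGAA, and for the E2F letters TTCCCGC or TTCGCGC or TTGCCGC or TTGGCGC. Matches to different motifs were counted separately even where they shared bases. CHR letters were present in 29 of 37 genes (78.4%) against 21.7% of all genes with a window, and CCAAT in 70.3% against 41.1%. At least 2 CCAAT boxes were present in 48.6% against 13.3%, and CCAAT together with CHR letters in 64.9% against 8.61%. E2F letters, the hallmark of G1/S genes, were present in 16.2% of the group, in 10.9% of all genes and in 64.9% of 37 DNA replication and G1/S genes, of which 24.3% held CHR letters. CCAAT was common in those replication genes too, in 59.5%, with at least 2 boxes in 37.8%. In 36 other mitosis genes with a window CHR letters were present in 69.4%, CCAAT in 66.7%, both in 52.8% and E2F letters in 27.8%. These shares describe letters in a window and were not tested, and a match is no proof of binding.

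Upstream stretches of 130 bases that touch no annotated exon are shown for 7 genes, because they span genes that passed the test for hyperoxia at PND7 (Ccnb2, Cdk1, Hmmr and Nuf2) and genes that did not (Cdc20, Kif11 and Top2a). They are written 5′ to 3′ on the strand of the gene, in lower case, with CCAAT and CHR letters of either strand in capitals (ATTGG is CCAAT and TTCAAA is TTTGAA read on the other strand). The stretches lie at chr9:70421555-70421684 (minus strand) for Ccnb2, chr10:69352939-69353068 (minus strand) for Cdk1, chr11:40733438-40733567 (minus strand) for Hmmr and chr1:169531465-169531594 (minus strand) for Nuf2. The others lie at chr4:118437353-118437482 (minus strand) for Cdc20, chr19:37376252-37376381 (plus strand) for Kif11 and chr11:99024190-99024319 (minus strand) for Top2a (all GRCm38.p6).
Ccnb2: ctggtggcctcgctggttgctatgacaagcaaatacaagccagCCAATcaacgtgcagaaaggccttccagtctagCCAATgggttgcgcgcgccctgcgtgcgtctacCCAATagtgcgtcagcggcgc
Cdk1: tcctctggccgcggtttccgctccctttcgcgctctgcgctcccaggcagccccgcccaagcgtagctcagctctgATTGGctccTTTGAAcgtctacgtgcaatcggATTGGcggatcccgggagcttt
Hmmr: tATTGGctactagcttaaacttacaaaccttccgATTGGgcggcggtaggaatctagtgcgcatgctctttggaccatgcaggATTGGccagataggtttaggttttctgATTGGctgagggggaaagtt
Nuf2: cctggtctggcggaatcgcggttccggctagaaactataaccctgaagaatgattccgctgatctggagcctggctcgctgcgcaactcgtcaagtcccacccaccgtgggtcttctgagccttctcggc
Cdc20: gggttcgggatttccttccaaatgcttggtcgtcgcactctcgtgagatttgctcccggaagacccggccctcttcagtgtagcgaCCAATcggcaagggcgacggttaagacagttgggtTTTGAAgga
Kif11: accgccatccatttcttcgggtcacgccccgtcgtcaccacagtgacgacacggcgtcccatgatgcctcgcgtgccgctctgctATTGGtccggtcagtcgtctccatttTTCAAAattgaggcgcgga
Top2a: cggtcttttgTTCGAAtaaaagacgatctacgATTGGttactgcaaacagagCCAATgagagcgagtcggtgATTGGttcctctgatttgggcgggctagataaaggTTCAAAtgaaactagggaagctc
Ccnb2 showed 3 CCAAT boxes in this stretch and Hmmr 4. Both also hold CHR letters, outside the stretch, at bases -167 and 4 from the start site in Ccnb2 and 8 in Hmmr. Cdk1 had 2 CCAAT boxes with a CHR element beside them, and Cdc20 and Kif11 had 1 of each. Top2a had 3 CCAAT boxes and 2 CHR elements, and Nuf2 had neither. Genes that passed at PND7, which is taken up below, were present with and without these motifs, a description with no test. Of 24 genes with both motifs 19 passed the test there, with a median log2 fold change of 0.64. Of the 6 with neither (Birc5, Mad2l1, Melk, Nuf2, Nusap1 and Pttg1) 5 passed, with a median of 0.72. The 5 with CHR letters only and the 2 with CCAAT only all passed, with medians of 0.67 and 0.62. Of all genes tested 9.79% rose. These calls depended on the libraries used.

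**Figure D1:**
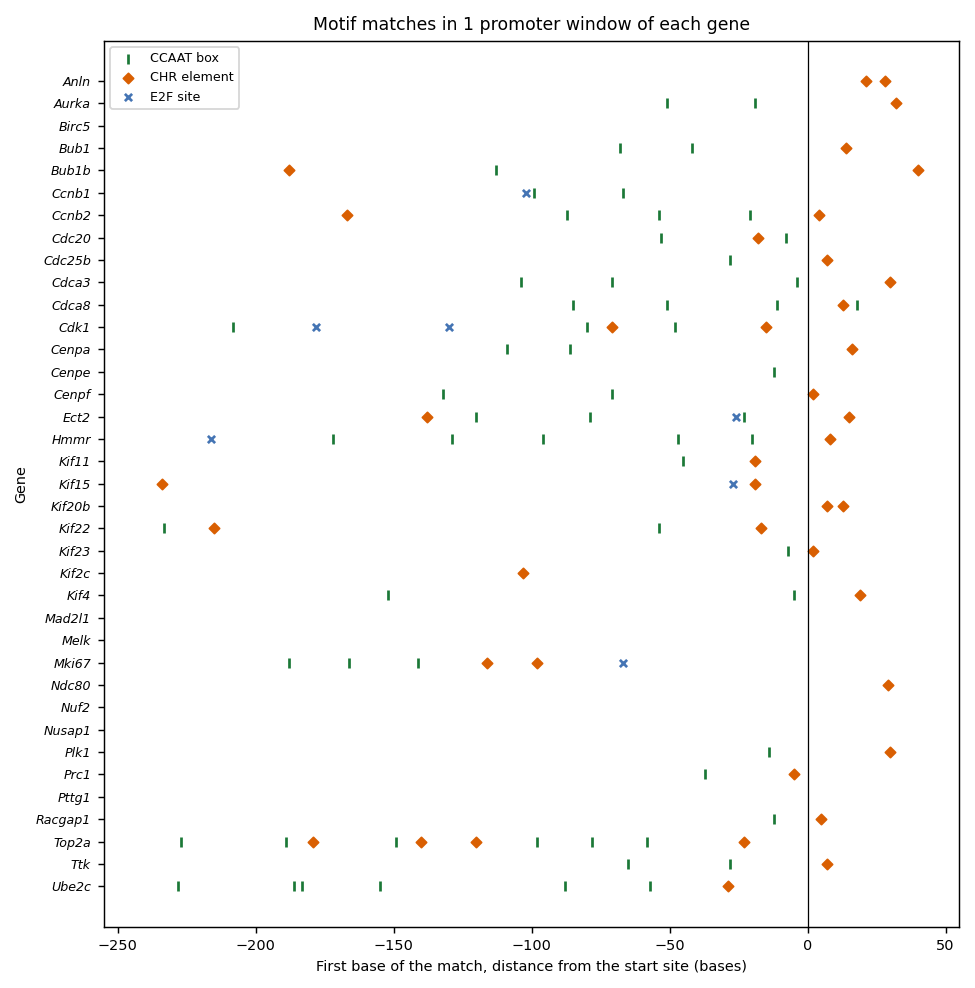
Position of each CCAAT box, CHR element and E2F site (first base of the match) relative to the start site, in bases, in 1 RefSeq window for each of the 37 genes. Nearly all CCAAT boxes lie before the start site, CHR matches lie on either side of it, and 6 genes have neither.

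In room air at PND7 the most abundant member was Cdk1, with a mean of 57.1 over 5 libraries, followed by Top2a (45.3), Ube2c (45.0), Pttg1 (40.1) and Cenpa (32.2). The phosphatase gene Cdc25c had the lowest mean, 2.96. At PND21 the order had changed at the top, since Pttg1 led with a mean of 55.8 over 6 room air libraries, followed by Cdc25b (15.2), Ube2c (9.54) and Cenpa (9.06), and Cdk1 was at 6.95. Cdc25c was again lowest, at 0.32.

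Between PND7 and PND21 the whole group fell with a single exception. In room air 43 of 44 genes fell, where 25.8% of all genes tested fell, and 1 gene, Pttg1, rose, where 23.6% of all genes rose (limma on log2(FPKM + 1), mean of the sexes). The median log2 fold change of the 44 was -1.93, against -0.01 over all genes tested. For 43 genes every PND21 room air library lay below every PND7 room air library, against 17.8% of all genes. Cdk1 in room air ran from 34.4 to 77.1 with a median of 63.9 at PND7 and from 5.22 to 10.1 with a median of 6.62 at PND21, with no overlap (log2 fold change -2.84, SE 0.21, adjusted p = 8.99e-09). This was the deepest fall of the group on the scale of log2(FPKM + 1). Cdca3 (-2.51, adjusted p = 4.17e-07), Aurkb (-2.48, adjusted p = 6.34e-08) and Birc5 (-2.45, adjusted p = 1.45e-07) were next on that scale. The lowest adjusted p-values belonged to Ccnb2 (log2 fold change -2.40, SE 0.16, adjusted p = 4.00e-09), Nuf2 (-2.42, adjusted p = 4.01e-09) and Tpx2 (-2.42, adjusted p = 5.33e-09), and the highest to Mad2l1 (-1.46, adjusted p = 8.41e-06) and Bub1 (-1.38, adjusted p = 1.31e-05). Cdc25b, a phosphatase that activates cyclin-dependent kinases and is also used outside mitosis, fell least, from a mean of 24.2 to 15.2 (log2 fold change -0.62, SE 0.08, adjusted p = 3.20e-06). Because 1 was added before the logarithm, falls of genes near 0 at PND21, such as Cdc25c (0.0545 to 0.498 in room air), are understated. By the ratio of the room air mean at PND7 to that at PND21, Cdc25c (9.25) and Nuf2 (9.07) fell more than Cdk1 (8.22). By the same ratio Tpx2 (7.82), Ttk (7.74) and Aurkb (7.69) came ahead of Cdca3 (7.18) and Birc5 (6.58).

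Pttg1 (chr11:43420250-43426251, GENCODE M21 on GRCm38) encodes securin, which holds separase inactive until anaphase. It ran from 35.7 to 42.8 with a median of 41.8 in room air at PND7 and from 50.3 to 60.1 with a median of 55.9 at PND21, so the days did not overlap and the older lungs were higher (log2 fold change 0.49, SE 0.06, adjusted p = 2.16e-06). Hyperoxia libraries gave the same direction, from 36.8 to 44.1 with a median of 38.7 at PND7 and from 54.3 to 63.9 with a median of 57.8 at PND21 (log2 fold change 0.54, SE 0.06, adjusted p = 6.30e-07). In the hyperoxia libraries as a whole 43 of 44 genes were again lower at PND21, where 25.8% of all genes were, with a median of -2.77. Ccnb2 (-3.40, adjusted p = 1.11e-10), Nuf2 (-3.33, adjusted p = 1.53e-10) and Tpx2 (-3.29, adjusted p = 2.23e-10) had the lowest adjusted p there too, and Cdc25b (-0.78, adjusted p = 2.19e-07) and Pttg1 the highest. Leaving out each library in turn left all 44 genes past the threshold at either oxygen level.

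**Figure D2:**
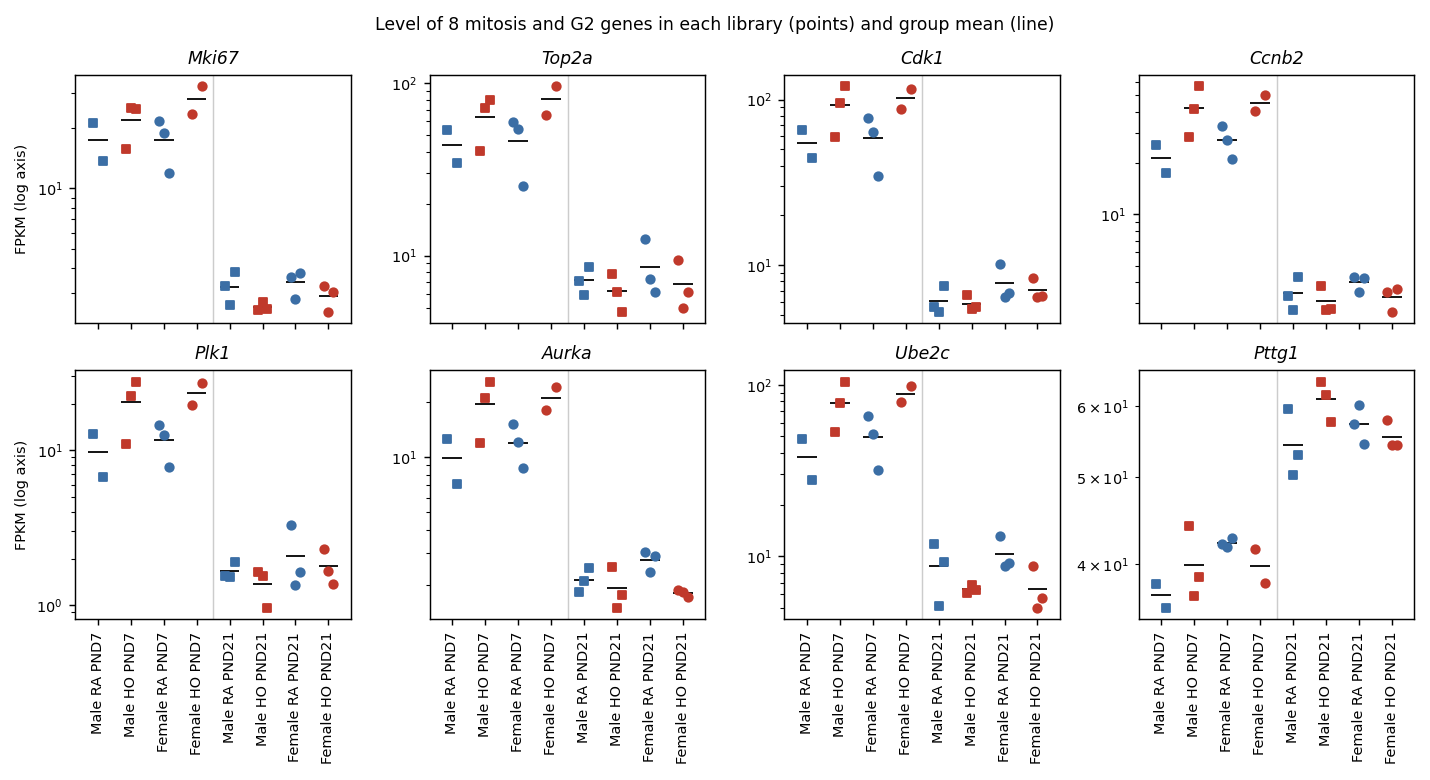
FPKM (log axis, different range in each panel) of 8 genes in each of the 22 libraries (points; squares male, circles female, blue room air, red hyperoxia) with the group mean (line). All except Pttg1 drop between PND7 and PND21, and in those 7 panels the highest PND7 library of each sex is a hyperoxia library.

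At PND7, mitosis and G2 genes were higher in hyperoxia. Over the mean of the male and female differences 37 of 44 rose and 0 fell, where 9.79% of all genes tested rose. All 44 estimates were positive, with a median log2 fold change of 0.68 (1.61-fold on the same scale) against -0.01 over all genes, and 43 had an unadjusted p under 0.05. On the scale of log2(FPKM + 1) the largest differences belonged to Cdca3 (log2 fold change 1.04, SE 0.27, adjusted p = 0.0107), Plk1 (0.97, adjusted p = 0.00924), Ube2c (0.95, adjusted p = 0.0103), Cdca8 (0.94, adjusted p = 0.00876) and Birc5 (0.92, adjusted p = 0.0111). Because 1 was added before the logarithm, that scale understates the differences of low genes such as Cdc25c and Hmmr. Genes that did not pass were Top2a (0.68, adjusted p = 0.0684), Cdc20 (0.56, adjusted p = 0.0676), Cdc25b (0.22, adjusted p = 0.0575), Kif11 (0.44, adjusted p = 0.0732), Cenpf (0.48, adjusted p = 0.134), Foxm1 (0.48, adjusted p = 0.0661) and Pttg1 (0.01, adjusted p = 0.914). The count was 11 without Male_RA_PND7 replicate 2, 13 without Female_HO_PND7 replicate 2, 13 without the 6 muscle-rich libraries and 16 with only the PND7 groups in the model, while the median was 0.61 without the muscle-rich libraries and lay between 0.54 and 0.81 when each library was left out. Ccnb1, Ccnb2, Cdc25c, Aurka, Tpx2, Hmmr, Kif20a, Cenpa and Nuf2 passed under all 17 alternatives run, and Pttg1 under 0 of them. Plk1, Kif4, Mad2l1 and Ttk were the other 4 that passed without the muscle-rich libraries, where 5.49% of all genes tested rose.

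**Figure D3:**
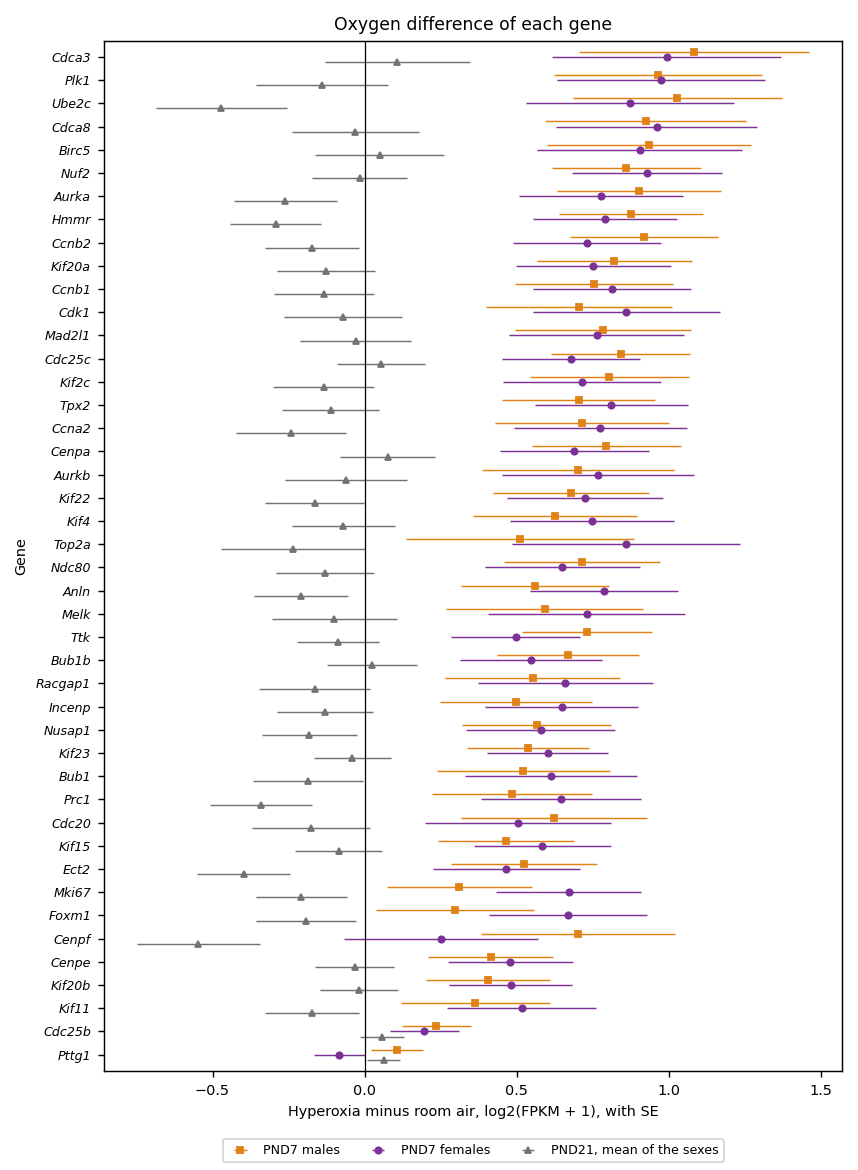
Difference between hyperoxia and room air in log2(FPKM + 1) for each of the 44 genes (points, with the standard error as bars) in PND7 males, PND7 females and, as the mean of the sexes, at PND21. The male and female estimates at PND7 lie to the right of 0 for all genes but Pttg1 in females, and the PND21 estimates lie around 0 or below it.

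The genes of mitotic entry rose in 7 of 9 cases, and the values of single libraries follow in the order of the replicate numbers. Cdk1 (chr10:69335146-69352938) is the kinase that drives entry into mitosis. In room air Cdk1 stood at 66 and 44.1 in males and at 77.1, 63.9 and 34.4 in females. In hyperoxia Cdk1 stood at 59.8, 95.9 and 121 in males and at 88.2 and 116 in females. Cdk1 at PND21 spanned 5.22 to 10.1 in the room air and 5.42 to 8.42 in the hyperoxia libraries. In females each hyperoxia library was above each room air library, while in males hyperoxia replicate 1 lay below room air replicate 1. The difference passed (log2 fold change 0.78, SE 0.22, adjusted p = 0.0162). Ccnb2 (chr9:70407692-70421547), cyclin B2, was separated within each sex, with no overlap between the oxygen groups of the same sex. Ccnb2 levels were 25.4 and 17.5 in male and 33.2, 27.2 and 21 in female room air libraries. Hyperoxia libraries held Ccnb2 at 28.4, 41.6 and 56.8 in males and 40.2 and 50.1 in females. Ccnb2 at PND21 spanned 2.74 to 4.30 in the room air and 2.67 to 3.79 in the hyperoxia libraries. The gene rose (log2 fold change 0.82, SE 0.17, adjusted p = 0.00317). Ccnb1 (chr13:100778650-100786570) encodes cyclin B1. Ccnb1 levels were 18.4 and 12.2 in male and 22.7, 19.4 and 13.8 in female room air libraries. Hyperoxia libraries held Ccnb1 at 17, 30.4 and 33.8 in males and 28.9 and 37.2 in females. Ccnb1 at PND21 spanned 1.79 to 3.11 in the room air and 1.5 to 2.87 in the hyperoxia libraries. Again the male groups overlapped through hyperoxia replicate 1 and the female groups did not (log2 fold change 0.78, SE 0.18, adjusted p = 0.00645). Ccna2 (chr3:36564865-36572150), cyclin A2 of S and G2 phase, showed the same arrangement. Ccna2 levels were 29.4 and 17.2 in male and 34, 27 and 16.9 in female room air libraries. Hyperoxia libraries held Ccna2 at 24.3, 43.5 and 49.6 in males and 37.9 and 49.9 in females. Ccna2 at PND21 spanned 2.92 to 4.49 in the room air and 2.22 to 3.77 in the hyperoxia libraries. The gene rose (log2 fold change 0.74, SE 0.20, adjusted p = 0.0144).

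Plk1 (chr7:122159439-122169873) encodes polo-like kinase 1, which acts from entry to cytokinesis. In room air Plk1 stood at 12.8 and 6.71 in males and at 14.5, 12.6 and 7.78 in females. In hyperoxia Plk1 stood at 11, 22.4 and 27.7 in males and at 19.6 and 27.2 in females. Plk1 at PND21 spanned 1.36 to 3.28 in the room air and 0.966 to 2.31 in the hyperoxia libraries. Male hyperoxia replicate 1 fell between the male room air libraries, and the other 4 hyperoxia libraries lay above all 5 in room air (log2 fold change 0.97, SE 0.24, adjusted p = 0.00924). Foxm1 (chr6:128362967-128376146) is a transcription factor of late cell cycle genes. Foxm1 levels were 20.8 and 13 in male and 20.4, 18.4 and 10.7 in female room air libraries. Hyperoxia libraries held Foxm1 at 14.1, 22.5 and 26.9 in males and 24.2 and 27.7 in females. Foxm1 at PND21 spanned 2.26 to 3.83 in the room air and 2.10 to 2.95 in the hyperoxia libraries. Its groups overlapped in males and not in females, and it did not pass (log2 fold change 0.48, SE 0.18, adjusted p = 0.0661). Cdc25c, the mitotic phosphatase of Cdk1, was separated in both sexes and rose (log2 fold change 0.76, SE 0.16, adjusted p = 0.00347). Melk, a kinase of proliferating cells, rose (0.66, adjusted p = 0.0451), and Cdc25b had the smallest value of the entry genes (0.22). The count of 7 entry genes was 3 without Male_RA_PND7 replicate 2, 4 without Female_HO_PND7 replicate 2 and 4 without the muscle-rich libraries.

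Mki67 and Top2a stand for the packing and untangling of chromosomes. Mki67 (chr7:135689784-135716361) encodes the Ki-67 protein, which coats mitotic chromosomes and is the common marker of cycling cells. In room air Mki67 stood at 21.2 and 13.8 in males and at 21.7, 19 and 12 in females. In hyperoxia Mki67 stood at 15.7, 25.1 and 24.9 in males and at 23.6 and 32.6 in females. Mki67 at PND21 spanned 2.62 to 3.81 in the room air and 2.41 to 3.26 in the hyperoxia libraries. Hyperoxia was above room air in every female library, and in males hyperoxia replicate 1 was again below room air replicate 1. The difference passed (log2 fold change 0.49, SE 0.17, adjusted p = 0.0436), and it passed under 8 of the 17 alternatives. It did not pass without Male_RA_PND7 replicate 2, Male_HO_PND7 replicate 2 or 3, Female_RA_PND7 replicate 3 or Female_HO_PND7 replicate 2, nor without the muscle-rich libraries (0.37, adjusted p = 0.217). Top2a (chr11:98992943-99024189) encodes topoisomerase 2 alpha, which separates entangled sister DNA. Top2a levels were 53.1 and 34.5 in male and 59.9, 54 and 25.2 in female room air libraries. Hyperoxia libraries held Top2a at 40.5, 71.9 and 79.5 in males and 65.6 and 96.4 in females. Top2a at PND21 spanned 5.88 to 12.4 in the room air and 4.71 to 9.46 in the hyperoxia libraries. These values covered a wide range within each group, with the lowest in female room air replicate 3, and the gene did not pass (log2 fold change 0.68, SE 0.26, adjusted p = 0.0684).

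All 4 spindle assembly genes rose, and 3 (Aurka, Tpx2 and Hmmr) without the muscle-rich libraries. Aurka (chr2:172356190-172370535), Aurora kinase A of the spindle poles, and Tpx2, which activates it, both rose. In room air Aurka stood at 12.6 and 7.11 in males and at 15.1, 12.1 and 8.72 in females. In hyperoxia Aurka stood at 11.9, 20.9 and 25.8 in males and at 17.9 and 24 in females. Aurka at PND21 spanned 1.82 to 3.01 in the room air and 1.5 to 2.50 in the hyperoxia libraries. The male groups overlapped through hyperoxia replicate 1, which lay below room air replicate 1, and the female groups did not (log2 fold change 0.84, SE 0.19, adjusted p = 0.00519). Tpx2 gave 0.76, adjusted p = 0.00648. Hmmr, a hyaluronan receptor that also binds spindle microtubules, was low but well separated. Hmmr levels were 5.74 and 4.26 in male and 7.55, 5.95 and 4.62 in female room air libraries. Hyperoxia libraries held Hmmr at 6.68, 11.4 and 12.6 in males and 9.05 and 13.3 in females. Hmmr at PND21 spanned 0.816 to 1.35 in the room air and 0.396 to 0.934 in the hyperoxia libraries. No hyperoxia library reached down to room air of the same sex (log2 fold change 0.83, SE 0.17, adjusted p = 0.00242). Nusap1, a microtubule-bundling protein, rose as well (0.57, adjusted p = 0.0251), and its exons overlap those of Oip5.

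Of 8 kinesins, the motors of the spindle and midzone, 7 rose. Kif20a (chr18:34624613-34633277), which is needed for cytokinesis, showed the largest difference on the scale of log2(FPKM + 1). Kif20a levels were 10.7 and 6.47 in male and 13.1, 10.6 and 6.91 in female room air libraries. Hyperoxia libraries held Kif20a at 10.5, 17.2 and 20.4 in males and 14.1 and 21.4 in females. Kif20a at PND21 spanned 0.916 to 1.52 in the room air and 0.914 to 1.28 in the hyperoxia libraries. Females were separated and males overlapped by a small margin, with hyperoxia replicate 1 just under room air replicate 1 (log2 fold change 0.79, SE 0.18, adjusted p = 0.00564). Kif11 (chr19:37376403-37421859), the Eg5 motor that pushes the spindle poles apart, was the exception. Kif11 levels were 12.4 and 8.14 in male and 13.6, 12.5 and 6.95 in female room air libraries. Hyperoxia libraries held Kif11 at 9.50, 14.3 and 17 in males and 14 and 17.4 in females. Kif11 at PND21 spanned 1.48 to 2.29 in the room air and 1.17 to 1.90 in the hyperoxia libraries. The groups of males overlapped and those of females did not, and the gene did not pass (log2 fold change 0.44, SE 0.17, adjusted p = 0.0732). Log2 fold changes of the remaining 6 kinesins (Kif2c, Kif4, Kif15, Kif20b, Kif22 and Kif23) lay between 0.44 for Kif20b and 0.76 for Kif2c. The count of 7 kinesins was 2 without Male_RA_PND7 replicate 2, 2 without Female_HO_PND7 replicate 2, and 2 (Kif20a and Kif4) without the muscle-rich libraries.

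At the centromere and kinetochore 4 of 5 genes rose. Cenpa (chr5:30666777-30674830) encodes the histone H3 variant that marks centromeres. Cenpa levels were 34.9 and 22.4 in male and 39.8, 35.7 and 28.1 in female room air libraries. Hyperoxia libraries held Cenpa at 35.1, 52.7 and 64.5 in males and 48.5 and 64 in females. Cenpa at PND21 spanned 7.65 to 11.2 in the room air and 6.93 to 12 in the hyperoxia libraries. Each sex was separated, in males by a narrow gap (log2 fold change 0.74, SE 0.17, adjusted p = 0.00628). Nuf2, with Ndc80 a part of the complex that grips microtubules, had the lowest adjusted p of the group. In room air Nuf2 stood at 12.8 and 8.43 in males and at 16.2, 13.7 and 7.61 in females. In hyperoxia Nuf2 stood at 14.6, 21.1 and 24.7 in males and at 20.2 and 27.7 in females. Nuf2 at PND21 spanned 0.877 to 1.91 in the room air and 1.02 to 1.56 in the hyperoxia libraries. All hyperoxia libraries exceeded the room air libraries of their sex (log2 fold change 0.89, SE 0.17, adjusted p = 0.00196). Ndc80 (0.68, adjusted p = 0.0127) and the kinetochore motor Cenpe (0.45, adjusted p = 0.0346) rose too. Cenpf, a large kinetochore protein, did not pass, and its values in the female hyperoxia libraries, 6.06 and 12.6, lay far apart. The count of 4 was 2 without Male_RA_PND7 replicate 2, 2 without Female_HO_PND7 replicate 2, and 2 (Cenpa and Nuf2) without the muscle-rich libraries.

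The spindle checkpoint and the chromosomal passenger complex, which senses faulty attachments, had 4 of 4 genes each past the threshold, counts that rested on single libraries. Without Male_RA_PND7 replicate 2 they were 1 for the checkpoint and 0 for the passenger complex, without Female_HO_PND7 replicate 2 they were 0 and 1, and without the muscle-rich libraries 2 (Ttk and Mad2l1) and 0. The passenger count was 2 without Male_HO_PND7 replicate 2 or 3 or Female_RA_PND7 replicate 3. Bub1 (chr2:127801122-127831865) is a checkpoint kinase. Bub1 levels were 7.43 and 4.71 in male and 8.44, 7.58 and 3.98 in female room air libraries. Hyperoxia libraries held Bub1 at 5.46, 10.4 and 12.4 in males and 9.02 and 11.7 in females. Bub1 at PND21 spanned 1.32 to 2.46 in the room air and 0.979 to 1.64 in the hyperoxia libraries. Room air replicate 1 lay above hyperoxia replicate 1 in males, and the difference was close to the threshold (log2 fold change 0.57, SE 0.20, adjusted p = 0.0498) and passed under 6 of the 17 alternatives. Mad2l1 (0.77, adjusted p = 0.0125), Ttk (0.61, adjusted p = 0.0084) and Bub1b (0.61, adjusted p = 0.0147) passed with more room. Aurkb (chr11:69045647-69051664), Aurora kinase B, is the enzyme of the passenger complex. Aurkb levels were 22 and 13.4 in male and 26.2, 22.5 and 12.3 in female room air libraries. Hyperoxia libraries held Aurkb at 19.5, 31.3 and 38 in males and 31.2 and 36.4 in females. Aurkb at PND21 spanned 1.84 to 3.31 in the room air and 1.59 to 3.16 in the hyperoxia libraries. As with most genes, the overlap was in males alone (log2 fold change 0.73, SE 0.22, adjusted p = 0.0254). Birc5 (chr11:117849251-117855743), survivin, targets the complex. In room air Birc5 stood at 33 and 22.2 in males and at 42.7, 35.1 and 21 in females. In hyperoxia Birc5 stood at 35, 56.8 and 73.1 in males and at 51.3 and 70.1 in females. Birc5 at PND21 spanned 3.21 to 7.21 in the room air and 3.69 to 6.38 in the hyperoxia libraries. Both sexes were separated (log2 fold change 0.92, SE 0.24, adjusted p = 0.0111). Cdca8, borealin (0.94, adjusted p = 0.00876), and Incenp, the scaffold (0.57, adjusted p = 0.0279), completed the set.

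All 4 cytokinesis genes rose, with a median of 0.58 against 0.83 in the passenger complex. Their count was 0 without Male_RA_PND7 replicate 2, Female_HO_PND7 replicate 2 or the muscle-rich libraries, and 1 without Male_HO_PND7 replicate 2 or 3 or Female_RA_PND7 replicate 3. Prc1 (chr7:80294450-80316259) bundles the microtubules of the midzone. Prc1 levels were 34.3 and 24.2 in male and 39.4, 34.1 and 21.1 in female room air libraries. Hyperoxia libraries held Prc1 at 27.1, 46.8 and 52.9 in males and 43.2 and 53.9 in females. Prc1 at PND21 spanned 4.55 to 6.06 in the room air and 3.27 to 5.03 in the hyperoxia libraries. Males overlapped and females did not (log2 fold change 0.56, SE 0.19, adjusted p = 0.0369). Anln (0.67, adjusted p = 0.0103), Racgap1 (0.61, adjusted p = 0.0403) and Ect2 (0.49, adjusted p = 0.0447), which organise the contractile ring, also passed, Ect2 under 5 of the 17 alternatives.

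Mitotic exit was split, with 2 of 4 genes higher, a count that was 0 without Male_RA_PND7 replicate 2 or the muscle-rich libraries and 1 without Female_HO_PND7 replicate 2. Ube2c (chr2:164769898-164778822) is the ubiquitin-conjugating enzyme of the anaphase-promoting complex. In room air Ube2c stood at 48 and 28 in males and at 65.7, 51.5 and 31.9 in females. In hyperoxia Ube2c stood at 53, 78.5 and 105 in males and at 79.1 and 97.9 in females. Ube2c at PND21 spanned 5.13 to 13.2 in the room air and 5.01 to 8.73 in the hyperoxia libraries. Hyperoxia and room air were separated in each sex (log2 fold change 0.95, SE 0.24, adjusted p = 0.0103), and without the muscle-rich libraries the value was 0.84 with an adjusted p of 0.0663. Ube2c shares exon sequence on the opposite strand with Tnnc2, a troponin of fast muscle, which lay between 40.8 and 261 in the 4 muscle-rich PND7 libraries and reached 1.20 at most elsewhere at PND7, and the part of Tnnc2 reads in Ube2c was not tested. Cdc20 (chr4:118432901-118437352) activates the same complex at anaphase. Cdc20 levels were 28.8 and 19.9 in male and 32, 31.9 and 20.3 in female room air libraries. Hyperoxia libraries held Cdc20 at 24.6, 43.3 and 48.8 in males and 32.3 and 48 in females. Cdc20 at PND21 spanned 3.42 to 8.84 in the room air and 3.98 to 5.12 in the hyperoxia libraries. In females the gap between the oxygen groups was narrow, in males they overlapped, and the gene did not pass (log2 fold change 0.56, SE 0.22, adjusted p = 0.0676). Cdca3, a trigger of Wee1 destruction, had the largest difference of all 44 genes on the scale of log2(FPKM + 1). Cdca3 levels were 31.3 and 18.2 in male and 41.7, 33.4 and 18.6 in female room air libraries. Hyperoxia libraries held Cdca3 at 34.1, 58.2 and 69.8 in males and 47.4 and 75.7 in females. Cdca3 at PND21 spanned 2.62 to 6.41 in the room air and 2.86 to 5.87 in the hyperoxia libraries. The oxygen groups overlapped in neither sex. Pttg1 showed no such pattern. In room air Pttg1 stood at 38 and 35.7 in males and at 42.1, 41.8 and 42.8 in females. In hyperoxia Pttg1 stood at 44.1, 36.8 and 38.7 in males and at 41.6 and 38.1 in females. Pttg1 at PND21 spanned 50.3 to 60.1 in the room air and 54.3 to 63.9 in the hyperoxia libraries. Its highest PND7 value was in male hyperoxia replicate 1, and the lowest in male room air replicate 2.

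The genes moved together from library to library. Among the 10 PND7 libraries Female_HO_PND7 replicate 2 was the highest in 24 of 44 genes and Male_HO_PND7 replicate 3 in 19. Female_RA_PND7 replicate 3 was the lowest in 23 genes and Male_RA_PND7 replicate 2 in 21. Male_HO_PND7 replicate 1 stood with room air, since it exceeded Male_RA_PND7 replicate 1 in 14 of 44 genes, Female_RA_PND7 replicate 2 in 13 and Female_RA_PND7 replicate 1 in 1, although it exceeded Male_RA_PND7 replicate 2 and Female_RA_PND7 replicate 3 in all 44. Every hyperoxia library lay above every room air library of the same sex for 13 genes in males, where 20.8% of all genes did, for 35 genes in females, where 16.2% did, and for 9 genes in both sexes, where 8.15% did. Those 9 were Ccnb2, Cdc25c, Mad2l1, Cenpa, Birc5, Ube2c, Hmmr, Nuf2 and Cdca3. Among the muscle-rich libraries, Female_HO_PND7 replicate 2 was among the highest and Male_RA_PND7 replicate 2 among the lowest. By the summed level of the 44 genes the muscle-rich library was the lowest of its group in males. It stood at 555 against 834 in room air and at 776 against 1217 and 1454 in hyperoxia. In females it lay between the others in room air (845, against 993 and 544) and was the higher in hyperoxia (1475, against 1112). The part of muscle in these levels was not tested.

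**Figure D4:**
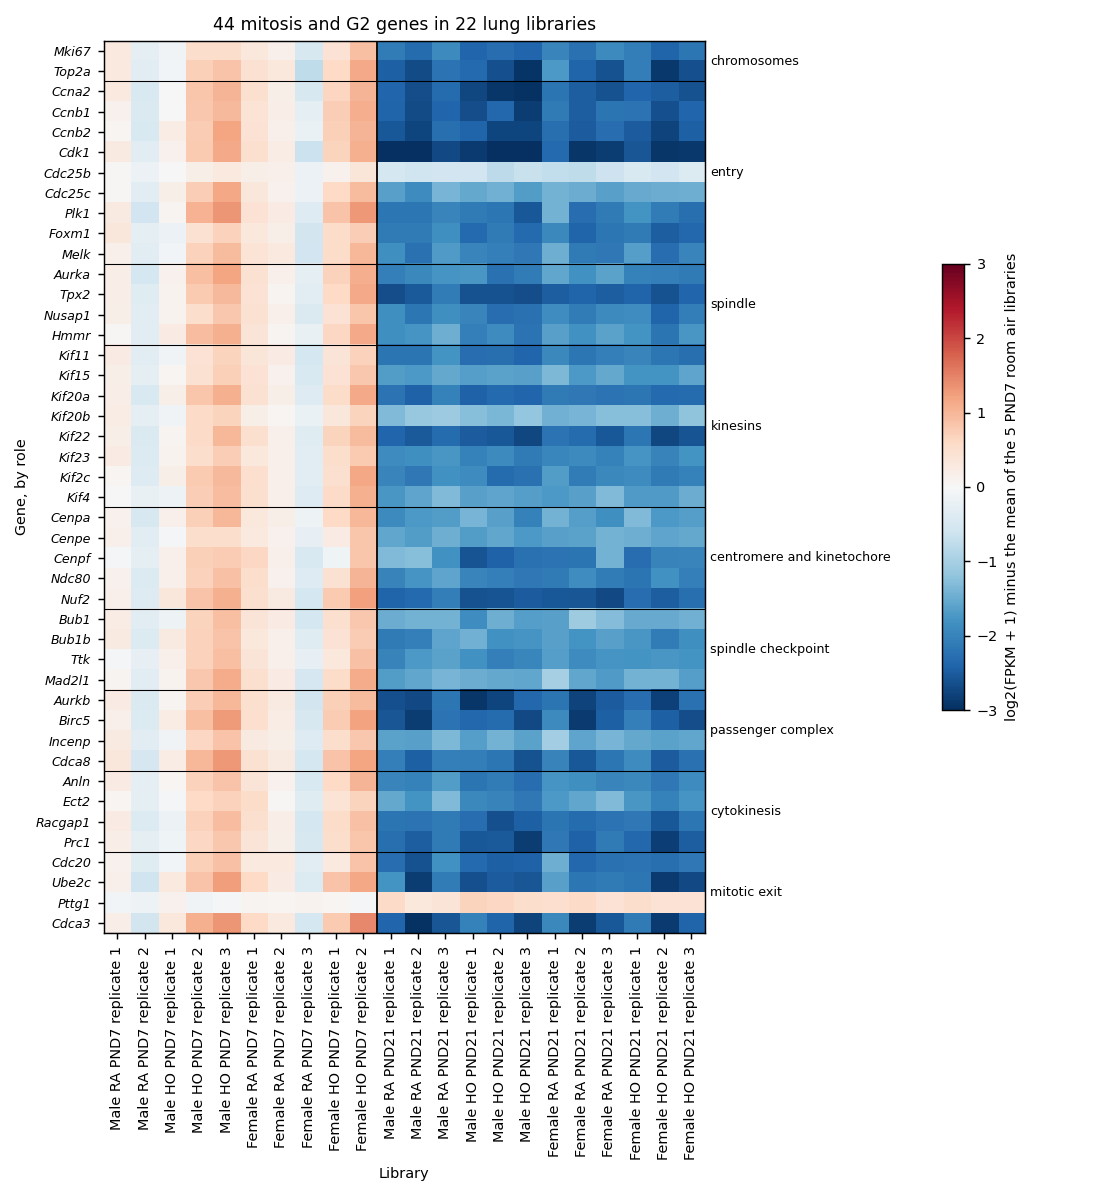
Level of the 44 genes (rows, grouped by role) in the 22 libraries (columns), as log2(FPKM + 1) minus the mean of the 5 PND7 room air libraries; red is higher and blue lower, and the scale is limited at -3 and 3. The columns of Male_HO_PND7 replicates 2 and 3 and of the female hyperoxia libraries are red for most genes, Male_HO_PND7 replicate 1 is near white, and Pttg1 stands out at PND21.

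Tested within a sex, few genes passed. In males 6 rose (Ccnb2, Hmmr, Cdc25c, Nuf2, Ttk and Aurka), where 3.37% of all genes rose, with a median of 0.69 and 29 genes at an unadjusted p under 0.05. Ccnb2 had the lowest adjusted p in males (log2 fold change 0.92, SE 0.24, adjusted p = 0.0288), and Foxm1 (0.30, adjusted p = 0.505) and Pttg1 (0.11, adjusted p = 0.458) the highest. The male count was 27 without Male_HO_PND7 replicate 1, 0 without Male_RA_PND7 replicate 1 or 2 or Male_HO_PND7 replicate 2 or 3, 43 with library quality weights, 2 with a pseudocount of 0.1, and 0 without the muscle-rich libraries. Shares of all genes called in these alternative fits are not given here, so the counts show only how far the male result moves. In females 1 rose, Nuf2 (log2 fold change 0.93, SE 0.25, adjusted p = 0.0346), where 1.86% of all genes rose, with a median of 0.70 and 39 genes at an unadjusted p under 0.05. The female count was 4 without Female_RA_PND7 replicate 1, 1 without Female_RA_PND7 replicate 2, and 0 without Female_RA_PND7 replicate 3 or either female hyperoxia library. Hmmr (0.79, adjusted p = 0.0562) and Anln (0.79, adjusted p = 0.0638) came next, and Cenpf (0.25, adjusted p = 0.685) and Pttg1 (-0.08, adjusted p = 0.597) were the farthest from passing.

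The oxygen difference of the sexes was compared directly. The interaction of sex and oxygen at PND7 called 0 of 44 genes (limma, 0 at an unadjusted p under 0.05), where 0% of all genes passed, with a median of 0.04 in the direction of a larger rise in females. Pttg1 (log2 fold change -0.19, SE 0.12, adjusted p = 0.997), Mki67 (0.36) and Foxm1 (0.37) came nearest to passing and Nusap1 (0.01) and Plk1 (0.01) were the farthest, and Cenpf had the lowest value (-0.45). The standard errors ran from 0.12, for Pttg1, to 0.53, beside a median oxygen difference of 0.68. They were 0.34 for Mki67, 0.35 for Nusap1, 0.37 for Foxm1 and 0.48 for Plk1. At errors like these the 10 libraries leave a sex difference of 0.68 undecided. A gene not called is not shown to respond alike in both sexes. At PND21 the interaction called 0 genes by limma (1 at an unadjusted p under 0.05, Cdc25b, 0.34, adjusted p = 1), where 0.0141% of all genes passed. Pttg1 (-0.21) and Cenpf (0.79) came next, and Ccnb1 (-0.01) and Kif4 were the farthest. Levels of females against males were called in 0 genes by limma in each of the 4 conditions. The share of all genes called was 0.0423% in room air and 0.0352% in hyperoxia at PND7, and 0.0634% in room air and 0.0634% in hyperoxia at PND21. At PND7 42 of 44 estimates were higher in females in room air (median 0.18, 1 gene at an unadjusted p under 0.05) and 42 in hyperoxia (median 0.19, 0 genes), and at PND21 32 (median 0.05, 0 genes) and 34 (median 0.12, 0 genes). Without the muscle-rich libraries the sign of the median turned in 3 of the 4 conditions, to -0.16 in room air and -0.27 in hyperoxia at PND7 and to -0.05 in room air at PND21. In room air at PND7 Pttg1 (0.19), Ccnb2 (0.33) and Cenpa (0.28) had the lowest adjusted p and Top2a (0.02) and Mki67 the highest. In hyperoxia at PND7 these were Mki67 (0.36), Foxm1 (0.33) and Ccnb1 (0.32), and Ttk (0.01) and Pttg1. At PND21 Cenpf (-0.47), Nuf2 (-0.35) and Cdc25b (-0.14) led in room air, with Nusap1 and Kif4 last, and Cdc25b (0.20), Pttg1 (-0.14) and Ccna2 (0.38) in hyperoxia, with Incenp and Kif4 last. The smallest of these adjusted p-values was 0.955.

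At PND21 no gene of the group passed the test for oxygen. Over both sexes 0 of 44 genes were called by limma, 3 at an unadjusted p under 0.05, where 0.282% of all genes were called, and 37 estimates were negative with a median of -0.13. Cenpf (log2 fold change -0.55, SE 0.20, adjusted p = 0.274), Ect2 (-0.40, adjusted p = 0.307) and Ube2c (-0.47, adjusted p = 0.415) were the 3, all with lower estimates in hyperoxia, and Kif20b (-0.02) and Nuf2 (-0.02) had the highest adjusted p. Cenpf ran from 0.658 to 2.14 with a median of 1.52 in the 6 room air libraries and from 0.274 to 0.930 with a median of 0.596 in the 6 hyperoxia libraries, which overlap. Ube2c at PND21 was highest in the muscle-rich room air libraries, at 11.7 in Male_RA_PND21 replicate 1 and 13.2 in Female_RA_PND21 replicate 1, where Tnnc2 stood at 448 and 329, and without the muscle-rich libraries its difference was -0.27 with an adjusted p of 0.508. Among males 0 genes were called by limma (3 at an unadjusted p under 0.05, 0.0211% of all genes called, median -0.16), and among females 0 (1 at an unadjusted p under 0.05, 0.0634% of all genes called, median -0.10). In males Cenpf (-0.94, adjusted p = 0.409), Pttg1 (0.17, adjusted p = 0.678) and Ect2 (-0.48, adjusted p = 0.693) came nearest and Mad2l1 (0.02) and Kif15 (0.01) were the farthest. In females these were Cdc25b (0.23, adjusted p = 0.489), Ube2c (-0.61, adjusted p = 0.546) and Aurka (-0.41, adjusted p = 0.63), and Birc5 (0.02) and Ndc80 (0.00). Male_RA_PND21 replicate 3 was the highest PND21 library in 17 genes and Female_RA_PND21 replicate 1 in 15, and Male_HO_PND21 replicate 3 the lowest in 14.

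The test of the days against each other, PND7 minus PND21 of the oxygen difference, called 21 of 44 genes higher and 0 lower, where 3.46% of all genes were called higher. The median was 0.81, 43 estimates were positive, and 42 had an unadjusted p under 0.05. This comparison uses the same PND7 libraries as the test at PND7 and is no separate evidence for it. Hmmr (log2 fold change 1.12, SE 0.22, adjusted p = 0.00529), Ube2c (1.42, adjusted p = 0.0126) and Ccnb2 (1.0, adjusted p = 0.0132) had the lowest adjusted p, and Cdc25b (0.16, adjusted p = 0.349) and Pttg1 (-0.05, adjusted p = 0.718) the highest. By role, 4 of 4 spindle assembly genes passed, 3 of 5 of the centromere and kinetochore, 3 of 4 of cytokinesis, 5 of 9 of entry, 4 of 8 kinesins, 1 of 4 of the checkpoint, 1 of 4 of mitotic exit, and 0 of 4 of the passenger complex. The count was 42 without Male_HO_PND7 replicate 1, 4 without Male_RA_PND7 replicate 2 or Female_HO_PND7 replicate 2, and 9 without Male_HO_PND7 replicate 2 or 3. It was 11 without Female_RA_PND7 replicate 3, Male_HO_PND21 replicate 2 or Female_HO_PND21 replicate 2, 13 without Male_RA_PND21 replicate 1 or Male_HO_PND21 replicate 3, and 2 (Hmmr and Aurka) without the muscle-rich libraries. Those 2 are 4.55% of the group, near the 2.51% of all genes called higher in that fit.

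At PND7 9.79% of all genes tested rose and 13.6% fell, and the lists below are set against these shares. Of 47 further mitosis genes 26 rose and 0 fell, with a median of 0.58, led by Ckap2 (0.69, adjusted p = 0.00294), Oip5 (0.67, adjusted p = 0.0039), Knstrn (0.87, adjusted p = 0.00417) and Gtse1 (0.87, adjusted p = 0.00456). Exons of Oip5 overlap those of Nusap1, a gene of the group, and their reads cannot be separated here. Of 43 DNA replication and G1/S genes 23 rose and 0 fell, with a median of 0.55. Without the muscle-rich libraries these counts were 10 and 7, with medians of 0.51 and 0.63. The replication genes that rose over all libraries included Dbf4, which activates the replication kinase Cdc7 (0.64, adjusted p = 0.000553), the replication factors Mcm10 (0.86, adjusted p = 0.0034) and Gins4 (0.33, adjusted p = 0.00491), and Tyms, thymidylate synthase (1.09, adjusted p = 0.00514). The mean log2(FPKM + 1) of the replication list was highest in Male_HO_PND7 replicate 3 (4.46) and lowest in Female_RA_PND7 replicate 3 (2.96), and that of the mitosis and G2 genes was highest in Female_HO_PND7 replicate 2 (4.76) and lowest in Female_RA_PND7 replicate 3 (3.42). Between PND7 and PND21 in room air 42 of 43 replication genes fell with a median of -1.25, a lesser median than that of the mitosis and G2 genes. The mean level of mitosis and G2 genes was 0.03 to 0.46 above that of the replication genes on the log2 scale in the PND7 libraries and between -0.69 and -0.31 in those of PND21, a description with no test.

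**Figure D5:**
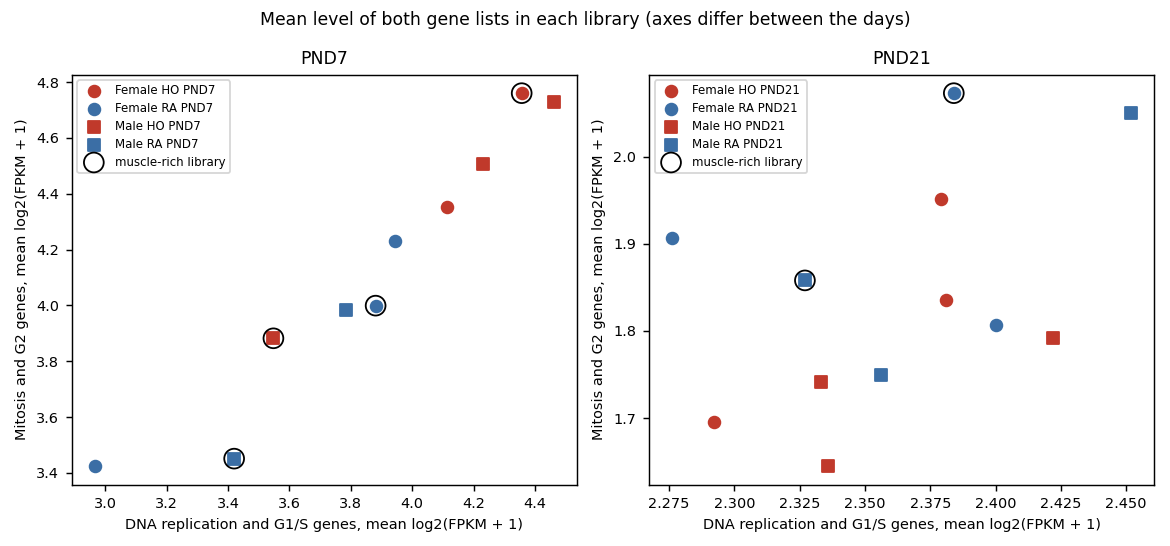
Mean log2(FPKM + 1) of the 44 mitosis and G2 genes against that of 43 DNA replication and G1/S genes, 1 point for each library (squares male, circles female, blue room air, red hyperoxia; black rings mark muscle-rich libraries; the axes differ between the days). At PND7 the libraries spread along a diagonal with Male_HO_PND7 replicate 1 among the room air libraries, and at PND21 all values are low and the oxygen groups mix.

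Lists of regulators had smaller medians. The share that rose was near or below that of all genes for the anaphase-promoting complex and for DREAM and MuvB. It was above that of all genes for the G1 cyclins and for the brakes on entry. Of 17 subunits and cofactors of the anaphase-promoting complex, 2 rose, Anapc15 (0.65, adjusted p = 0.00383) and the elongating enzyme Ube2s (0.43, adjusted p = 0.0101), and Anapc2, the cullin subunit, fell (-0.22, adjusted p = 0.0306), with a median of 0.06. These are 11.8% higher and 5.88% lower, near or below the shares of all genes. Of 18 DREAM and MuvB genes 1 rose, the E2F partner Tfdp1 (0.34, adjusted p = 0.0342), and 1 fell, Rbl2, which encodes the pocket protein p130 (-0.41, adjusted p = 0.0037), with a median of 0.10, and 5.56% either way is below the shares of all genes. Of 10 G1 cyclins and their kinases, Ccnd1 (0.50, adjusted p = 0.000711) and Ccnd3 (0.28, adjusted p = 0.0172) rose and Cdk7 fell (-0.19, adjusted p = 0.0238). These are 20% higher, against 9.79% of all genes, and 10% lower, against 13.6%. Of 16 brakes on entry 4 rose (25%) and 1 fell (6.25%), the same counts as without the muscle-rich libraries. Cdkn1a encodes p21, an inhibitor of cyclin-dependent kinases and a target of p53. In room air Cdkn1a stood at 21.1 and 30.4 in males and at 20.6, 23.4 and 21.3 in females. In hyperoxia Cdkn1a stood at 53.5, 46.4 and 51 in males and at 46.6 and 57.5 in females. Every hyperoxia library exceeded every room air library, and the gene rose (log2 fold change 1.09, SE 0.16, adjusted p = 0.000244). The checkpoint kinase Chek2 (0.53, adjusted p = 0.00181), Gadd45g (0.64, adjusted p = 0.0036) and Cdkn2d, an inhibitor of Cdk4 and Cdk6 (0.44, adjusted p = 0.00968), rose too, and cyclin G2, Ccng2, which is high in resting cells, fell (-0.53, adjusted p = 0.000664). At PND21 Cdkn1a was highest in the muscle-rich libraries, 45.0 in Male_RA_PND21 replicate 1 and 52.5 in Female_RA_PND21 replicate 1, and lay between 18.5 and 38.0 in the others.

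Markers of other cell types moved with oxygen at PND7. Of 12 monocyte and macrophage markers 10 rose and 0 fell, with sums of 993 to 1225 in the room air and 985 to 2644 in the hyperoxia libraries. The mean log2(FPKM + 1) of the list, which weights its genes equally, lay between 3.66 and 3.75 in room air and between 4.15 and 5.03 in hyperoxia, with no overlap. Female_HO_PND7 replicate 2, in which most mitosis and G2 genes were highest, had the lowest value of the hyperoxia libraries by either measure. Of 6 mast cell markers 5 rose and 1 fell (Kit), with list sums of 48.9 to 62.7 against 81.1 to 110.4. Of 9 neutrophil markers 3 rose, with sums of 207 to 251 and 335 to 833. Of 8 B cell markers 6 fell, with sums of 39.9 to 69.4 against 21.4 to 30.1. Of 8 fibroblast markers 5 fell, with sums of 1965 to 3213 and 1349 to 1857, and of 10 endothelial markers 3 fell, where 13.6% of all genes fell. Without the muscle-rich libraries 11 monocyte and macrophage and 5 mast cell markers rose, 1 neutrophil marker rose, and 4 B cell, 5 fibroblast and 2 endothelial markers fell. Among these lists Mcpt2 was at 0 in 4 of the 10 libraries, Fcer1a and Mpo in 3 and Elane in 5. Thymocyte markers, whose cells divide fast, had 0 of 6 called by limma (0 at an unadjusted p under 0.05), sums of 6.48 to 10.1 against 4.72 to 8.24, and Rag2 at 0 in 6 of 10 libraries. The part of these cell types in the higher mitosis and G2 levels was not tested.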

How the data were processed

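The authors deposited a table of 22520 coding genes by 22 libraries. The deposited values are taken as FPKM that the authors made from aligned reads and then quantile normalized, a reading that rests on the tools named, the table's name and the values. TopHat2 2.0, Cufflinks 2.0 and the mm10 genome are named per the submitters' processing notes, with no settings. Of the ranks 56.4% agree within 1% between libraries, and the sums of the libraries lie between 529406 and 533090. The table holds no counts, so the depth of each library is unknown and no counting interval is given. All sample columns were used.

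Differences were tested with limma 3.58.1 (R 4.3.3) with an intensity trend on log2(FPKM + 1), over 14200 genes at 1 or more in at least 2 libraries, in a model of 8 groups with 14 residual degrees of freedom. Two-sided p-values were adjusted by Benjamini-Hochberg over all genes tested in each of 15 comparisons, and a gene was called at an adjusted p under 0.05. Groups came from the labels of sex, oxygen and day. The scripts were tested on simulated data. Alternatives changed the pseudocount, the filter, the trend, library weights, the scaling, the groups in the model and the libraries used. Coordinates are from GENCODE M21 (GRCm38), which matched 44 of 44 genes, and promoter windows from RefSeq (GRCm38.p6).

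The genes and lists were chosen with earlier results of these data known. Genes named are 19 chosen cell cycle genes with every PND7 value, in each comparison the 3 genes with the lowest and the 2 with the highest adjusted p, Cdkn1a, up to 4 genes of each pathway list with the lowest adjusted p, and markers where a result turns on them. The genes given for role groups and for the largest differences were added after their values were seen. Lists of alveolar macrophage (3 of 10 higher), alveolar type 2 (1 of 8 higher), lung identity (1 higher and 1 lower of 8), erythroid (1 of 7 lower), skeletal muscle (0 of 8 called by limma, 0 at an unadjusted p under 0.05) and squamous epithelium (0 of 10 called by limma, 0 at an unadjusted p under 0.05) markers were also read at PND7.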

Additional observations from a re-analysis of the deposited data

Results flagged for a closer look

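The oxygen difference at PND7 minus that at PND21 passed its own test, the interaction term in limma, for 21 of 44 genes. All were in the direction of a higher value at PND7, where 3.46% of all genes were called higher. Without the muscle-rich libraries the median over the 44 genes was 0.72. The count of 21 moved widely with the libraries used, as given above, so most of the values below rest on single libraries. Among entry genes the log2 values were 1.11 for Plk1, 1.0 for Ccnb2, 0.99 for Ccna2, 0.91 for Ccnb1 and 0.70 for Cdc25c. For the spindle they were 1.12 for Hmmr, 1.10 for Aurka, 0.87 for Tpx2 and 0.75 for Nusap1. The kinesins gave 0.91 for Kif20a, 0.89 for Kif2c, 0.87 for Kif22 and 0.61 for Kif23. At the centromere and kinetochore they were 1.02 for Cenpf, 0.91 for Nuf2 and 0.81 for Ndc80, and 0.70 for the checkpoint kinase Ttk. Cytokinesis genes gave 0.91 for Prc1, 0.89 for Ect2 and 0.88 for Anln. Ube2c gave 1.42, and 1.11 with an adjusted p of 0.0839 without the muscle-rich libraries. Groups of fewer than 4 libraries were not tested for outlying values with Dixon's ratio. The library quality weights that limma estimated ran from 0.203 for Female_RA_PND21 replicate 1 and 0.269 for Male_HO_PND7 replicate 1 to 6.81 for Male_HO_PND7 replicate 2.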

How the results depend on the processing

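No paired analysis was possible because the replicate numbers follow accession order and pair no samples across groups. No result changed sign past the threshold, and between the days 43 genes were called lower and 1 higher (Pttg1) at both oxygen levels under every setting run. With only the groups compared in the model, the PND7 count fell from 37 to 16 over both sexes, and to 0 in males and 0 in females. Without the 6 muscle-rich libraries these counts were 13, 0 and 0, and the day interaction fell from 21 to 2, in a fit with fewer libraries. In that fit 2.51% of all genes were called higher for the day interaction. Library quality weights gave 43 in PND7 males, 0 in PND7 females, 3 lower at PND21, 3 in PND21 females (1 higher and 2 lower), 1 lower for the sex interaction at PND21 and 42 for the day interaction. The share of all genes called in the weighted fit is not given here, so these counts are no result about the group. Counts of the pathway and marker lists without the muscle-rich libraries were added after seeing the data. A pseudocount of 0.1 gave 2 in PND7 males. Without a filter on low values the count was 3 in PND7 males and 0 in PND7 females, and rescaling by a trimmed mean gave 2 in PND7 females. The cause of these changes was not tested. With each library left out in turn the PND7 count was 11 to 42 over both sexes, 0 to 27 for males alone and 0 to 4 for females alone, and that of the day interaction 4 to 42. A fit that leaves 1 library in a group assumes that it varies like the other groups. Depth is unknown, so the precision of low values cannot be stated.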
